A study of Mus musculus with 24 samples.

Results

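Transcripts of the mitochondrial ribosomal proteins were measured in mouse liver after furan or vehicle, in tissue preserved in 3 ways. The genes were taken by name, as every gene of the count table whose symbol is Mrpl or Mrps followed by a number, and 77 of 24015 genes met that rule. They were 50 proteins of the large subunit, 26 of the small subunit, and Mrps36, which carries a ribosomal name but is known as a component of the alpha-ketoglutarate dehydrogenase complex. Mrps30 and Mrps18a were counted with the large subunit, where structures of the mammalian mitoribosome place them. Of the 76 ribosomal members, 48 have a bacterial homologue and 28 belong to the mitochondrial ribosome alone.

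The animals were females of the hybrid strain B6C3F1, 5 to 6 weeks of age on arrival. Furan, a small ring ether that cytochrome P450 enzymes of the liver convert to a reactive dialdehyde, was given in corn oil by gavage at 8 mg per kg of body weight per day over 21 days, and controls received the oil alone. Livers were collected 4 hours after the last dose and each was cut into 3 pieces. Groups of 4 libraries, 1 per animal, were furan and control frozen tissue (snap frozen), furan and control paraffin blocks fixed in formalin over 18 hours (FFPE 18 h), and furan and control blocks fixed over 3 weeks (FFPE 3 weeks), 24 libraries in all. Furan animals are numbered 41 to 44 and control animals 2, 3, 4 and 6. Frozen and fixed pieces went through different extraction kits, and the FFPE 3 weeks samples came from 2 sections where the FFPE 18 h samples came from 1, so preservation, kit, input and piece of liver cannot be told apart.

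The mitochondrial ribosome translates the few messengers of mitochondrial DNA, which encode membrane subunits of the respiratory chain and of ATP synthase. All of its proteins are encoded in the nucleus, made in the cytosol and imported, while its ribosomal RNAs come from the mitochondrial genome. Hepatocytes hold many mitochondria and depend on them for fatty acid oxidation, the urea cycle and gluconeogenesis.

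Frozen libraries held 37978435 to 49326373 counts, FFPE 18 h libraries 22889146 to 28054631 and FFPE 3 weeks libraries 5560002 to 11019297, with furan and control overlapping in each. The frozen library of control animal 3 stood apart: its mean Pearson correlation with the other controls was 0.949 over 10196 genes, against 0.973 to 0.979 for the other 3 frozen controls and 0.988 to 0.990 for the frozen furan libraries. The fixed libraries of that animal did not stand apart, at 0.990 in FFPE 18 h and 0.933 in FFPE 3 weeks tissue, each with its own group. The 8 hepatocyte markers, albumin among them, were all detected, and their summed level was 167651 to 188811 CPM (counts scaled to a common library size, here with TMM) in furan and 157537 to 178665 in control frozen libraries. Lymphocyte markers summed to at most 12.8 CPM in any library. The haemoglobin genes Hba-a1, Hba-a2, Hbb-b1 and Hbb-b2 were at 0 in all libraries. How reads with several matches were counted is not given in the sources used here, so these values are no measure of blood in the tissue.

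Within frozen liver the members spanned a wide range of levels. Per kilobase of transcript, the highest were Mrpl33 at 51.2 ± 13.2 CPM per kb, Mrpl14 at 49.2 ± 9.52, Mrpl42 at 47.2 ± 12.6, Mrpl52 at 41.9 ± 3.98 and Mrpl30 at 39.8 ± 3.43 (SD, n = 8 libraries of both treatments). All of these are large-subunit proteins, and the SDs of neighbours in that order overlapped. The median member stood at 18.6 CPM per kb. The lowest were Mrpl48 at 1.60, Mrpl23 at 0.152 and Mrps36 at 0.0930 CPM per kb. Levels per kb and their order depend on the transcript taken for each gene, here 4285 nucleotides long for Mrpl48 and 1107 for Mrps33. In RefSeq's mouse annotation (GRCm38.p6), 6 members have a pseudogene named after them, and these include the 4 lowest members, Mrps33, Mrpl48, Mrpl23 and Mrps36, as well as Mrpl51 at 8.03 and Mrpl27 at 18.6 CPM per kb. How reads that fit both a gene and its copy were counted is not given in the sources used here, and the part of the copies in these low values was not tested.

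The order of the members held in fixed tissue, with a Spearman correlation to frozen tissue of 0.951 in FFPE 18 h and 0.857 in FFPE 3 weeks over 77 members, which is a description of genes that share libraries. The highest members were Mrpl42 at 30.6 CPM per kb in FFPE 18 h and Mrpl50 at 36.5 in FFPE 3 weeks tissue. Mrpl23 and Mrps36 were too low to be tested in any comparison, and the other 75 members were tested in every comparison.

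Taken as shares of each library, the summed members were higher in furan than in control livers in all 3 preservations. In frozen tissue the sums were 1717, 1664, 1826 and 1752 CPM of the library's total, with no TMM, in furan animals 41 to 44, against 1557, 1530, 1547 and 1588 in control animals 2, 3, 4 and 6. The FFPE 18 h sums were 1435, 1391, 1474 and 1495 in furan animals, against 1314, 1352, 1326 and 1360 in controls. The FFPE 3 weeks sums were 1254, 1299, 1285 and 1285 in furan animals, against 1172, 1201, 1227 and 1176 in controls. Furan and control libraries did not overlap in any of the 3. The pieces come from the same animals and so are not separate evidence.

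After TMM normalization, which scales libraries to the bulk of genes, the gap was smaller and the libraries overlapped in 2 of the 3 preservations. The sums were then 2052 ± 98.6 CPM in furan and 1881 ± 87.8 in control frozen tissue, 1360 ± 30.8 and 1289 ± 18.5 CPM in furan and control FFPE 18 h tissue, and 1109 ± 32.9 and 1070 ± 15.2 CPM in furan and control FFPE 3 weeks tissue (SD, n = 4 each). Only the FFPE 18 h libraries stayed apart, at 1320 to 1393 CPM with furan and 1269 to 1305 in controls. Large-subunit transcripts outweighed small-subunit transcripts by a ratio of 2.53 ± 0.0355 in furan and 2.505 ± 0.0378 in control frozen tissue, and of 2.66 ± 0.0371 in furan and 2.499 ± 0.0874 in control FFPE 18 h tissue, where the libraries did not overlap. In FFPE 3 weeks tissue the ratio was 2.64 ± 0.102 in furan and 2.53 ± 0.159 in control libraries, which overlapped.

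**Figure D1:**
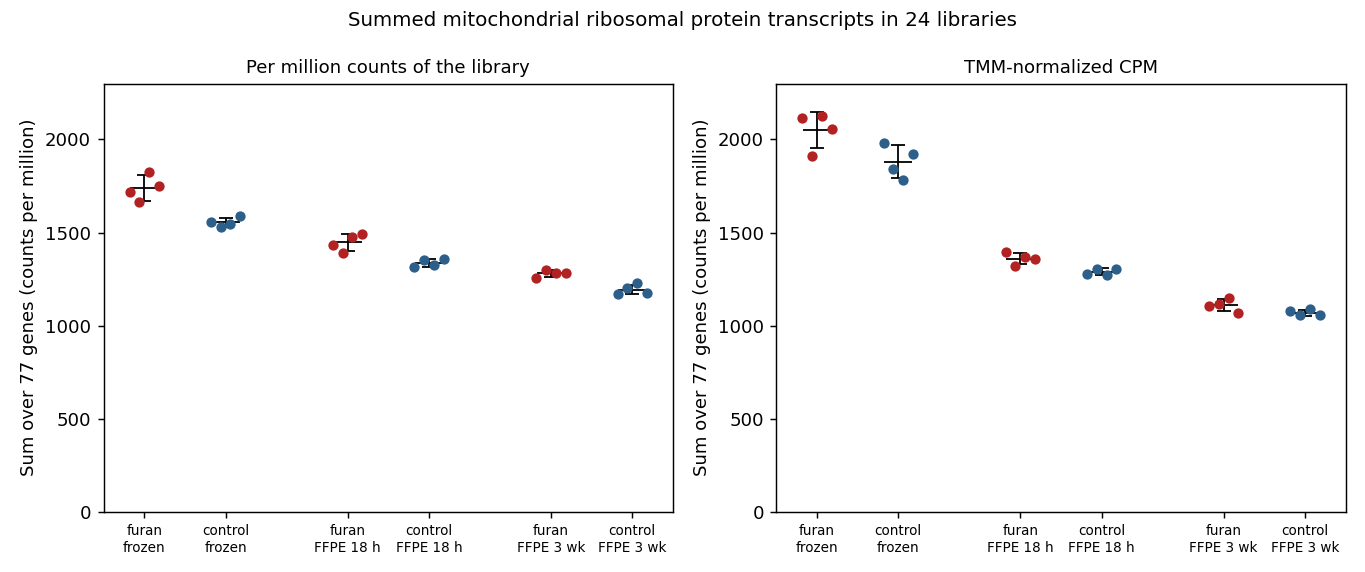
Summed level of the 77 mitochondrial ribosomal protein genes per library (points, n = 4 animals a group) with mean and SD (bars), as CPM of the library's total on the left and as TMM-normalized CPM on the right, furan red and control blue. On the left furan libraries lie above controls in each preservation, for example 1664 to 1826 in furan and 1530 to 1588 in control frozen libraries, while on the right the frozen and FFPE 3 weeks groups overlap.

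The first comparison asks what 3 weeks of furan did to these transcripts in frozen liver. Gene by gene, edgeR's quasi-likelihood test called none of the 75 tested members at an adjusted p (Benjamini-Hochberg over all genes tested) under 0.05, while it called 392 of 14122 genes, 2.78% of all genes tested (1.57% higher and 1.2% lower). At an unadjusted p under 0.05 there were 10 members, where 18.4% of all genes passed. DESeq2 called 3 members, and 1066 of 14122 genes. Fold changes leaned upward: 48 of 75 members were positive, with a median log2 fold change of 0.10 against -0.01 over all genes tested. The lean was not particular to the members. Cytosolic ribosomal proteins had a median of 0.21 with 49 of 66 positive, and nuclear subunits of the respiratory chain 0.07 with 47 of 77 positive. Libraries did not overlap, with furan higher, for 11 members (Mrpl10, Mrpl18, Mrpl19, Mrpl34, Mrpl37, Mrpl50, Mrpl52, Mrps10, Mrps22, Mrps23 and Mrps7), and 7.2% of all genes did the same. No member was apart with furan lower, against 6.3% of all genes. In bulk tissue, a change in the share of a cell type and a change of RNA per cell cannot be told apart.

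Mrps7, the homologue of the bacterial protein that organizes the head of the small subunit, had the smallest p. It stood at 81.6, 72.7, 81.8 and 74.1 CPM in furan animals 41 to 44, against 62.1, 60.6, 56.8 and 58.0 CPM in control animals 2, 3, 4 and 6. Every furan library was above every control library. The log2 fold change was 0.39 ± 0.10 (SE) with an edgeR adjusted p of 0.0643, and it passed the threshold in DESeq2 (adjusted p = 0.00346), with total-count scaling (adjusted p = 0.0398) and without control animal 3 (adjusted p = 0.0123). The gene overlaps Gga3 and Mif4gd in the annotation, and reads of overlapping genes could be shared if strand was not used in counting.

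Mrps18b, with Mrps18a and Mrps18c a mammalian homologue of bacterial S18, was at 15.4, 18.2, 22.8 and 19.6 CPM in furan animals, against 12.9, 11.8, 13.9 and 15.6 CPM in controls. Only the lowest furan library, of animal 41, fell below the highest control, of animal 6. Its log2 fold change was 0.49 ± 0.15 with an edgeR adjusted p of 0.120, and DESeq2 gave an adjusted p of 0.0455. Mrpl47, the homologue of bacterial L29 near the polypeptide exit, went the other way. It was at 10.1, 10.2, 10.4 and 12.7 CPM in furan animals, against 15.3, 18.1, 12.6 and 14.3 CPM in controls. The groups overlapped only through furan animal 44 and control animal 4. Its log2 fold change was -0.47 ± 0.15 with an edgeR adjusted p of 0.127 and a DESeq2 adjusted p of 0.0351.

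The promoters of Mrps7 and Mrps18b are shown because these genes had the smallest p with furan in frozen tissue. The window runs from 250 bases before to 50 after the start in RefSeq GRCm38.p6, 5′ to 3′ on the gene's strand. Capitals mark matches on either strand to GCGCATGCG (the motif of nuclear respiratory factor NRF1), CCGGAAGT (ETS factors, among them GABP), AAGATGGCG (YY1), GGGCGG (SP and KLF factors) and CACGTG (E-box). In Mrps18b the capitals near the 5′ end mark an NRF1 match and the others SP and KLF matches.
Mrps7, chr11:115603890-115604189, plus strand: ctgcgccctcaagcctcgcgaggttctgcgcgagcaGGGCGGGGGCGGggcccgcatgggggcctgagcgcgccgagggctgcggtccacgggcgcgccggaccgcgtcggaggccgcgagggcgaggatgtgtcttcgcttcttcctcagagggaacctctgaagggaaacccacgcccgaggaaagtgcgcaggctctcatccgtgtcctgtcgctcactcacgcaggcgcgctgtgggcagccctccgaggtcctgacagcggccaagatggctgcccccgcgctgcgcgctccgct
Mrps18b, chr17:35916391-35916690, minus strand: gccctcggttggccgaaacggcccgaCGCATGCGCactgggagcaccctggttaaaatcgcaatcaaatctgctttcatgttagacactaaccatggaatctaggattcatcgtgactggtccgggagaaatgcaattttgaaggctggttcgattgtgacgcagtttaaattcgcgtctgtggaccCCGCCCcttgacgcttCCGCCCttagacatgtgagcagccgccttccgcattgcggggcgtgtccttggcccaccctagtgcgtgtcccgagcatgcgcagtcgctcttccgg

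RefSeq promoter windows were found for 68 of the 77 members. The NRF1 letters occurred in 7 of them (10.3%), against 2.39% of 17820 promoters of the same length. The ETS letters occurred in 11 (16.2%, against 5.34% of all) and the YY1 letters in 8 (11.8%, against 1.98%). NRF1, GABP and YY1 are known regulators of nuclear genes for mitochondrial proteins. The SP and KLF letters were found in 34 of the 68 members, against 46.9% of all, and the E-box in 5 members (7.35%, against 8.18%). These are counts of letters in a window, and none of the 5 sets of letters overlaps another in the promoters printed here.

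Among the next members by p in frozen tissue, Mrps22, a small-subunit protein with no bacterial counterpart, was at 39.7, 32.2, 38.5 and 38.0 CPM in furan animals, against 28.9, 13, 26.6 and 28.0 CPM in controls. The value of 13 belongs to control animal 3, the library that stood apart. The log2 fold change was 0.62 ± 0.21 (edgeR adjusted p = 0.156), and without that animal it was 0.42 with an adjusted p of 0.0203. Mrps10, the homologue of bacterial S10, was at 11.5 to 14.3 CPM in furan and 7.03 to 11.2 CPM in control libraries, and Mrpl34, the homologue of bacterial L34, at 19.1 to 21.2 CPM in furan and 9.31 to 18.2 CPM in control libraries. Both groups were apart, and neither gene passed the threshold (edgeR adjusted p = 0.169 and 0.228). The lowest control value was again that of animal 3 in both. Without it, edgeR called 3 members higher with furan (Mrps7, Mrps22 and Mrpl38, the last with a log2 fold change of 0.51), and 1148 genes in all.

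**Figure D2:**
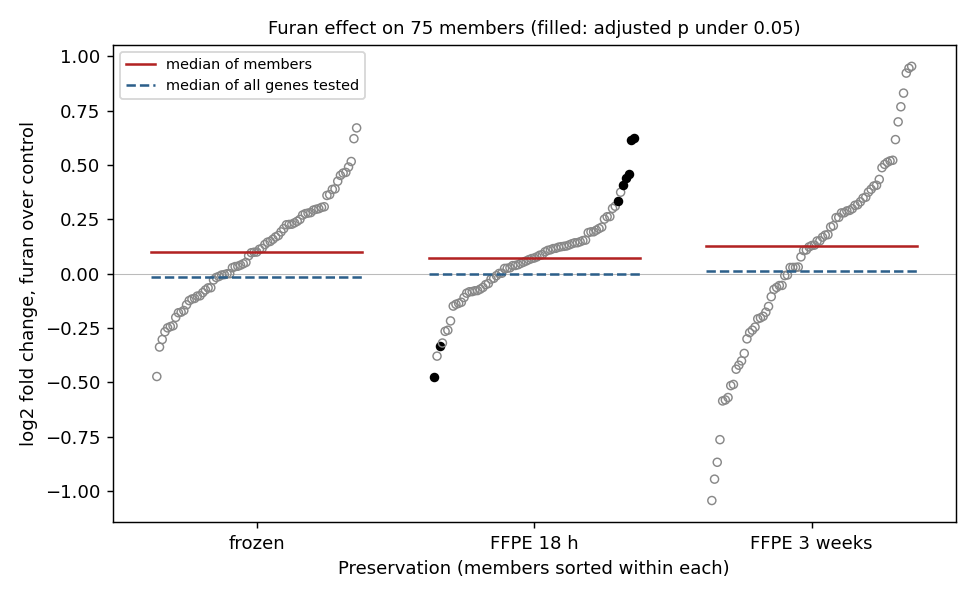
Log2 fold change, furan over control, of the 75 tested members in each preservation, sorted within a preservation, filled where the adjusted p was under 0.05, with the median of members (solid) and of all genes tested (dashed). Member medians were 0.10, 0.07 and 0.13 in frozen, FFPE 18 h and FFPE 3 weeks tissue, and filled points occur in FFPE 18 h tissue only.

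The same contrast in FFPE 18 h tissue called 8 members, 6 higher and 2 lower with furan. These are 10.7% of the tested members, while 15.5% of all 14204 genes tested were called, 7.82% higher and 7.72% lower. All 8 calls were lost when the spread was estimated over all 24 libraries, a fit that called 305 of 14901 genes in this contrast. Of the 6 that were higher, Mrpl38, Mrpl50, Mrpl42 and Mrpl45 belong to the large subunit and Mrps18b and Mrps22 to the small subunit, and 5 of them have no bacterial homologue. Both that were lower, Mrpl14 and Mrps9, do have one. Of the 28 tested members without a bacterial homologue 17.9% were called, and of the 47 with one 6.38%, beside the 15.5% of all genes. No test compared these classes. Over all members the median log2 fold change was 0.07 against 0.00 over all genes, and 51 of 75 were positive. Without control animal 4 that median was 0.040, with 48 positive. Libraries did not overlap for 9 members with furan higher and 4 with furan lower (Mrpl14, Mrps15, Mrps24 and Mrps9), against 9.59% and 10.4% of all genes.

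Mrpl38, a large-subunit protein without a bacterial homologue, was at 56.0, 42, 57.8 and 44.3 CPM in furan animals 41 to 44, against 31.2, 36.3, 30.7 and 32.3 CPM in control animals 2, 3, 4 and 6. All furan libraries were above all controls, with a log2 fold change of 0.63 ± 0.10 (edgeR adjusted p = 0.000553). Mrpl50, another large-subunit protein without a bacterial homologue, was at 61.1, 61.1, 66.6 and 65.7 CPM in furan animals, against 45.2, 42.2, 50.6 and 50.7 CPM in controls. Again the groups were apart, with little spread among the furan animals. Its log2 fold change was 0.44 ± 0.08 (edgeR adjusted p = 0.000711).

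Mrps18b was at 11.2, 11.4, 12.8 and 10.2 CPM in furan animals, against 8.01, 7.39, 8.23 and 6.37 CPM in controls, with no overlap. The log2 fold change was 0.61 ± 0.13 (edgeR adjusted p = 0.00447). Mrps22 was at 19.0, 19.1, 18.0 and 17.7 CPM in furan animals, against 15.3, 11.2, 13.5 and 14.2 CPM in controls. Its log2 fold change was 0.46 ± 0.11 (edgeR adjusted p = 0.00893), and control animal 3 again had the lowest value. These differences stand beside those in frozen tissue, 0.49 for Mrps18b and 0.62 for Mrps22, which did not pass.

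Mrpl42, a large-subunit protein of the mitochondrial lineage, was at 21.6 to 24.6 CPM in furan and 14.4 to 20.4 CPM in control libraries, a log2 fold change of 0.41 ± 0.11 (edgeR adjusted p = 0.0160). Mrpl45, which sits at the polypeptide exit and holds the ribosome to the inner membrane, was at 21.9 to 25.4 CPM in furan and 17.2 to 19.995 CPM in control libraries, a log2 fold change of 0.33 ± 0.09 (edgeR adjusted p = 0.0223). In both genes the groups were apart. Both lost the threshold when control animal 4 was left out (adjusted p = 0.0595 for Mrpl42 and 0.0764 for Mrpl45), and Mrpl42 did so too without control animal 3 or furan animal 44, Mrpl45 without control animal 6 or furan animal 41 or 43.

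Mrpl14, the homologue of bacterial L14 on the face that meets the small subunit, was lower with furan, at 20.04, 12.4, 15.7 and 16 CPM in furan animals, against 20.9, 21.2, 25.1 and 22.4 CPM in controls. The highest furan value lay just under the lowest control, and the log2 fold change was -0.47 ± 0.13 (edgeR adjusted p = 0.0152), beside -0.30 in frozen and -0.87 in FFPE 3 weeks tissue, where it did not pass. Mrps9, the homologue of bacterial S9, was at 12, 11, 10.6 and 11.7 CPM in furan animals, against 14.6, 13.3, 14.0 and 15.6 CPM in controls. Its log2 fold change of -0.33 ± 0.11 (edgeR adjusted p = 0.0493) was at the threshold, and leaving out any of the 8 libraries took it past 0.05. Mrpl14 overlaps Tmem63b and Mrps9 overlaps Gm23126 in the annotation.

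**Figure D3:**
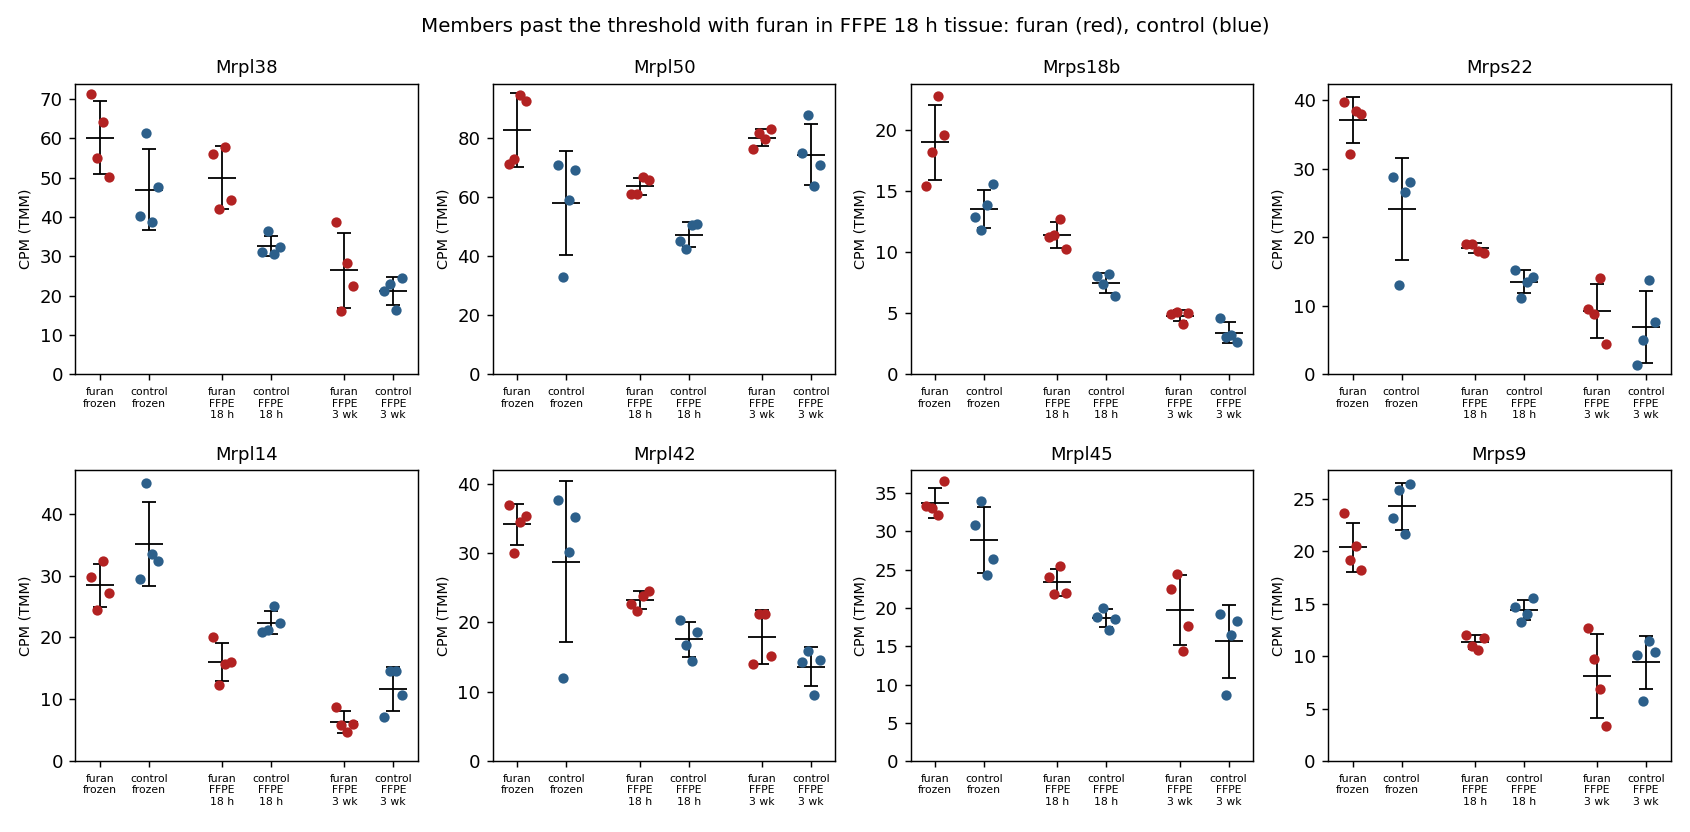
TMM-normalized CPM per library (points, n = 4 animals a group) with mean and SD of the 8 members called with furan in FFPE 18 h tissue, furan red and control blue, in the 3 preservations. Furan and control FFPE 18 h libraries do not overlap in any panel, for example 42 to 57.8 CPM in furan and 30.7 to 36.3 CPM in control libraries for Mrpl38.

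Among the shallowest libraries, of FFPE 3 weeks tissue, no member was called by edgeR, nor by DESeq2 among the 72 to which it gave an adjusted p, and 2.58% of all 12983 genes tested were called by edgeR, 1.07% higher and 1.51% lower. At an unadjusted p under 0.05 there were 5 members, where 12.4% of all genes passed. The median member was at a log2 fold change of 0.13 against 0.01 over all genes, and 46 of 75 were positive. Without furan animal 42 that median was 0.068, with 40 positive. Libraries were apart for 1 member with furan higher (Mrps30) and 2 with furan lower (Mrps17 and Mrps6), against 3.88% and 4.8% of all genes. Mrpl13, the homologue of bacterial L13, had the smallest p. It was at 26.8, 27.2, 26.5 and 15.7 CPM in furan animals, against 14.3, 12.8, 16.4 and 13.5 CPM in controls, so that furan animal 44 lay among the controls. The log2 fold change was 0.77 ± 0.28 (edgeR adjusted p = 0.183).

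Mrps30, in the large subunit despite its name, was at 11, 11.3, 28.8 and 12.7 CPM in furan animals, against 10.1, 7.01, 9.50 and 6.77 CPM in controls. The groups were apart, but the furan value of animal 43 stood far above the rest. Its log2 fold change was 0.95 ± 0.38 (edgeR adjusted p = 0.224). Mrps7 was at 34.7 to 45.1 CPM in furan and 24.3 to 34.8 CPM in control libraries, with a log2 fold change of 0.50 ± 0.21 (edgeR adjusted p = 0.288). Mrps17, the homologue of bacterial S17, was lower in every furan library, at 14.6 to 20.8 CPM, against 21.3 to 27.2 CPM in controls (log2 fold change -0.51 ± 0.26, edgeR adjusted p = 0.453). Mrpl15 was at 23.5 to 45.2 CPM in furan and 40.4 to 53.3 CPM in control libraries (-0.44 ± 0.21, edgeR adjusted p = 0.376). When the spread was estimated over all 24 libraries, 1549 of 14901 genes and 6 members passed: Mrpl13, Mrps30 and Mrps7 higher, and Mrpl14, Mrps17 and Mrpl27 lower.

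Tests of the difference in furan effect between preservations called no gene by edgeR in the fits of each pair of preservations. A difference between preservations was thus not shown for any member. The edgeR fit over all 24 libraries called 4 genes for FFPE 3 weeks minus frozen and 5 for FFPE 3 weeks minus FFPE 18 h, with no member among them. At an unadjusted p under 0.05 there were 1 member for FFPE 18 h minus frozen (1.61% of all genes), 4 for FFPE 3 weeks minus frozen (4.10% of all genes) and 6 for FFPE 3 weeks minus FFPE 18 h (5.31% of all genes). DESeq2 called no member in any of them. The smallest p of these belonged to Mrps24 (-0.40 ± 0.16) and Mrpl2 (-0.24 ± 0.15), both at an edgeR adjusted p of 1.00, to Mrpl15 (-0.75 ± 0.28, edgeR adjusted p = 0.987) and Mrps17 (-0.55 ± 0.24, edgeR adjusted p = 1.00), and to Mrpl13 (0.63 ± 0.26, edgeR adjusted p = 0.825) and Mrps30 (0.87 ± 0.36, edgeR adjusted p = 0.830), in the same order.

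Other genes of mitochondrial gene expression were taken from lists of their roles. With furan in frozen tissue none was called among 12 genes of mitochondrial DNA maintenance and transcription, 13 translation factors, 6 ribosomal proteins with other symbols, 26 assembly factors and 10 regulators of mitochondrial biogenesis. The 10 regulators had in FFPE 18 h tissue 1 member higher and 3 lower with furan (40% called), where 15.5% of all genes tested were called. Ppargc1b, a coactivator of mitochondrial genes, was lower (log2 fold change -0.90 ± 0.12, edgeR adjusted p = 5.91e-05), as was Esrra, the nuclear receptor it acts with (-0.54 ± 0.12, edgeR adjusted p = 0.00546). Pprc1, a related coactivator, was higher (0.63 ± 0.12, edgeR adjusted p = 0.00224). Of the 26 assembly factors 1 was higher and 1 lower (7.69% called, below the 15.5% of all genes). Fastkd2, which binds the large ribosomal RNA, was higher (0.58 ± 0.11, edgeR adjusted p = 0.00121) and Mterfd2, which guides a methyltransferase to that RNA, was lower (-0.45 ± 0.09, edgeR adjusted p = 0.00286). Among the 13 translation factors 1 was called (7.69%), Guf1, which was lower (-0.28 ± 0.09, edgeR adjusted p = 0.0362). In FFPE 3 weeks tissue no gene of these lists was called with furan.

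Among markers of other cells, those of sinusoidal endothelium were lower with furan in the same libraries. No Kupffer cell and macrophage, bile duct or lymphocyte marker was called with furan in frozen or FFPE 18 h tissue. Of 6 stellate cell markers 1 was lower in FFPE 18 h tissue and none was called in frozen tissue. The 7 markers of sinusoidal endothelium summed to 516 to 543 CPM in furan and 638 to 661 CPM in control FFPE 18 h libraries, where 5 of the 7 were lower, and to 536 to 571 CPM in furan and 682 to 742 CPM in control frozen libraries, where 1 was lower. Hepatocyte markers summed to 97334 to 113676 CPM in furan and 96167 to 103295 CPM in control FFPE 18 h libraries. Their part in the values of the ribosomal protein genes was not tested.

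Far more members were called between fixed and frozen tissue than between furan and control. Set against frozen tissue, FFPE 18 h tissue had lower levels of most: 66 of 75 tested members fell and none rose (6 did with total-count scaling), while of 14843 genes tested 27.3% fell and 53.9% were called in either direction. The median member fell by 0.63 on the log2 scale, against a median of 0.01 over all genes, and log2 fold changes ranged from -1.23 to 0.35. For 34 members all 8 fixed libraries lay below all 8 frozen libraries, as they did for 8.93% of all genes. No member was apart upward, against 8.64% of all genes. The 9 members that did not pass were Mrpl12, Mrpl19, Mrpl37, Mrps2, Mrps25, Mrps27, Mrps30, Mrps33 and Mrps6. DESeq2 called 1 member, Mrps6, higher and 66 lower, and without control animal 3 edgeR called 1, Mrpl12, higher and 67 lower.

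The normalization sets where 0 lies in this contrast. With total-count scaling in place of TMM the median of all genes moved to 0.34, and 45 members fell and 6 rose (Mrpl12, Mrpl19, Mrpl37, Mrps2, Mrps27 and Mrps6), with a member median of -0.30. Relative to all genes the member median was -0.65 under both scalings. A change of scaling moves all genes by nearly the same amount, so this likeness is not a check of the fall.

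Mrps18c, which takes the place of bacterial S18 in the small subunit, had the largest fall. Its lowest, median and highest values were 7.34, 7.95 and 11.1 CPM in FFPE 18 h and 15.9, 18.1 and 24.7 CPM in frozen tissue (n = 8 libraries each). Every fixed library was lower than every frozen one. The log2 fold change was -1.23 ± 0.12 (edgeR adjusted p = 4.11e-08). Mrpl24, which lines the exit of the peptide tunnel, was at 13.7, 15.4 and 16.4 CPM in FFPE 18 h and 26.0, 31.8 and 52.0 CPM in frozen tissue, with a log2 fold change of -1.14 ± 0.11 (edgeR adjusted p = 5.64e-08). The 52.0 CPM was the frozen library of control animal 3, and the other frozen libraries were at 26.0 to 36.7 CPM. Mrpl24 overlaps Rrnad1 in the annotation.

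Mrps31, a small-subunit protein of the mitochondrial lineage, had the smallest p of the named falls. It was at 18.6, 22 and 25.2 CPM in FFPE 18 h and 40.5, 46.7 and 50.5 CPM in frozen tissue, with a log2 fold change of -1.11 ± 0.07 (edgeR adjusted p = 3.12e-10). Mrpl46, a large-subunit protein without bacterial homologue, was at 7.68, 9.74 and 11.1 CPM in FFPE 18 h and 17.9, 19.5 and 28.8 CPM in frozen tissue (-1.08 ± 0.10, edgeR adjusted p = 5.36e-08). Mrpl47 was at 4.78, 6.28 and 7.54 CPM in FFPE 18 h and 10.1, 12.6 and 18.1 CPM in frozen tissue (-1.07 ± 0.11, edgeR adjusted p = 1.89e-07). All 3 genes were lower in each fixed library than in any frozen one.

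The promoter of Mrps31 is shown for its place among the falls, and those of Mrpl46 and Mrps11 for their position: these members are transcribed away from each other from starts 42 bases apart, so that their windows share 141 bases. Mrps31 has none of the 5 sets of letters. Mrps11, which encodes the homologue of bacterial S11 on the platform of the small subunit, has a YY1 match and an SP and KLF match. The SP and KLF match lies in the shared stretch and is the one in capitals in Mrpl46, read on the other strand.
Mrps31, chr8:22411090-22411389, plus strand: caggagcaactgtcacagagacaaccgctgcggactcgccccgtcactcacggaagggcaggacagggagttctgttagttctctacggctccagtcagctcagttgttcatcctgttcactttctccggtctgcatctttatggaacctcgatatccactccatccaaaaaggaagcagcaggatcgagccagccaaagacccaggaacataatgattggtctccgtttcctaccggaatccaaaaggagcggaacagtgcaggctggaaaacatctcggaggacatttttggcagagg
Mrpl46, chr7:78783040-78783339, minus strand: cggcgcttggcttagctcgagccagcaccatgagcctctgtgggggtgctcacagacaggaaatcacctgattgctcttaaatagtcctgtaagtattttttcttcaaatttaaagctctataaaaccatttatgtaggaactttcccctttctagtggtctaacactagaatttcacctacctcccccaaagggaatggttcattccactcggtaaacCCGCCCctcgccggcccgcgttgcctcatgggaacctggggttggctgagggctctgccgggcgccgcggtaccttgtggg
Mrps11, chr7:78782881-78783180, plus strand: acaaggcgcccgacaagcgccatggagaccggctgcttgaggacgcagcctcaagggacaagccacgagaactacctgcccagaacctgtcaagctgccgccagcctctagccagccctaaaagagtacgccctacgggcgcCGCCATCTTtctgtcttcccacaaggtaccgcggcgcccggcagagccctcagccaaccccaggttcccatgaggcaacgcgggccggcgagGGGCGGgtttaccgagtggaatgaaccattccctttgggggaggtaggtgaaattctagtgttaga

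Mrpl12 and Mrps6 lay at the upper end of the range. Mrpl12, the stalk protein that recruits translation factors, was at 33.2, 38.8 and 43.1 CPM in FFPE 18 h and 20.5, 31.5 and 51.9 CPM in frozen tissue, with a log2 fold change of 0.22 ± 0.13 (edgeR adjusted p = 0.174). The 51.9 CPM was again the frozen library of control animal 3. Without that animal Mrpl12 was called higher in FFPE 18 h tissue (log2 fold change 0.36, edgeR adjusted p = 0.00780). Mrps6, the homologue of bacterial S6, was at 4.80, 5.44 and 7.42 CPM in FFPE 18 h and 2.22, 4.98 and 5.95 CPM in frozen tissue, with a log2 fold change of 0.35 ± 0.15 (edgeR adjusted p = 0.0638). It passed with the animal as a replicate block (log2 fold change 0.37, edgeR adjusted p = 0.0387), with DESeq2 (0.36, adjusted p = 0.0385) and without control animal 2 (0.45, edgeR adjusted p = 0.0235). Mrps6 shares its locus with Slc5a3.

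Tissue kept for 3 weeks in formalin was also lower in most members. Against frozen tissue 60 members fell, none rose (5 did with total-count scaling) and 15 did not pass, where 25.8% of 14253 genes tested fell and 48.8% were called. The median member fell by 1.01 on the log2 scale, against a median of -0.02 over all genes, and fold changes ranged from -2.25 to 0.25. All 8 fixed libraries lay below all 8 frozen ones for 36 members, and for 11.4% of all genes, and above them for no member, against 7.78% of all genes. With total-count scaling the median of all genes was 0.40, and 45 members fell and 5 rose (Mrpl12, Mrpl19, Mrpl50, Mrps2 and Mrps25), with a member median of -0.58. DESeq2 called 1 member, Mrps2, higher and 58 lower.

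Mrpl24 had the largest fall, at 3.00, 5.43 and 17.1 CPM in FFPE 3 weeks and 26.0, 31.8 and 52.0 CPM in frozen tissue (-2.25 ± 0.27, edgeR adjusted p = 2.05e-07). Mrpl28, the homologue of bacterial L28, was at 7.34, 9.42 and 13.3 CPM in FFPE 3 weeks and 32.4, 35.0 and 65.4 CPM in frozen tissue (-1.99 ± 0.17, edgeR adjusted p = 5.47e-10). The 65.4 CPM was the frozen library of control animal 3, and the other 7 frozen libraries reached at most 39.1 CPM. Mrps18b was at 2.68, 4.37 and 5.09 CPM in FFPE 3 weeks and 11.8, 15.5 and 22.8 CPM in frozen tissue (-1.97 ± 0.19, edgeR adjusted p = 3.95e-09). Mrps31 was at 7.52, 11.7 and 19.4 CPM in FFPE 3 weeks and 40.5, 46.7 and 50.5 CPM in frozen tissue (-1.90 ± 0.17, edgeR adjusted p = 9.76e-10). In each of these genes the groups lay apart. Mrpl14 was at 4.68, 7.94 and 14.6 CPM in FFPE 3 weeks and 24.4, 31.1 and 45.0 CPM in frozen tissue (-1.86 ± 0.18, edgeR adjusted p = 2.65e-09). Per kb it had rank 19 among the members in FFPE 3 weeks and rank 2 in frozen tissue.

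**Figure D4:**
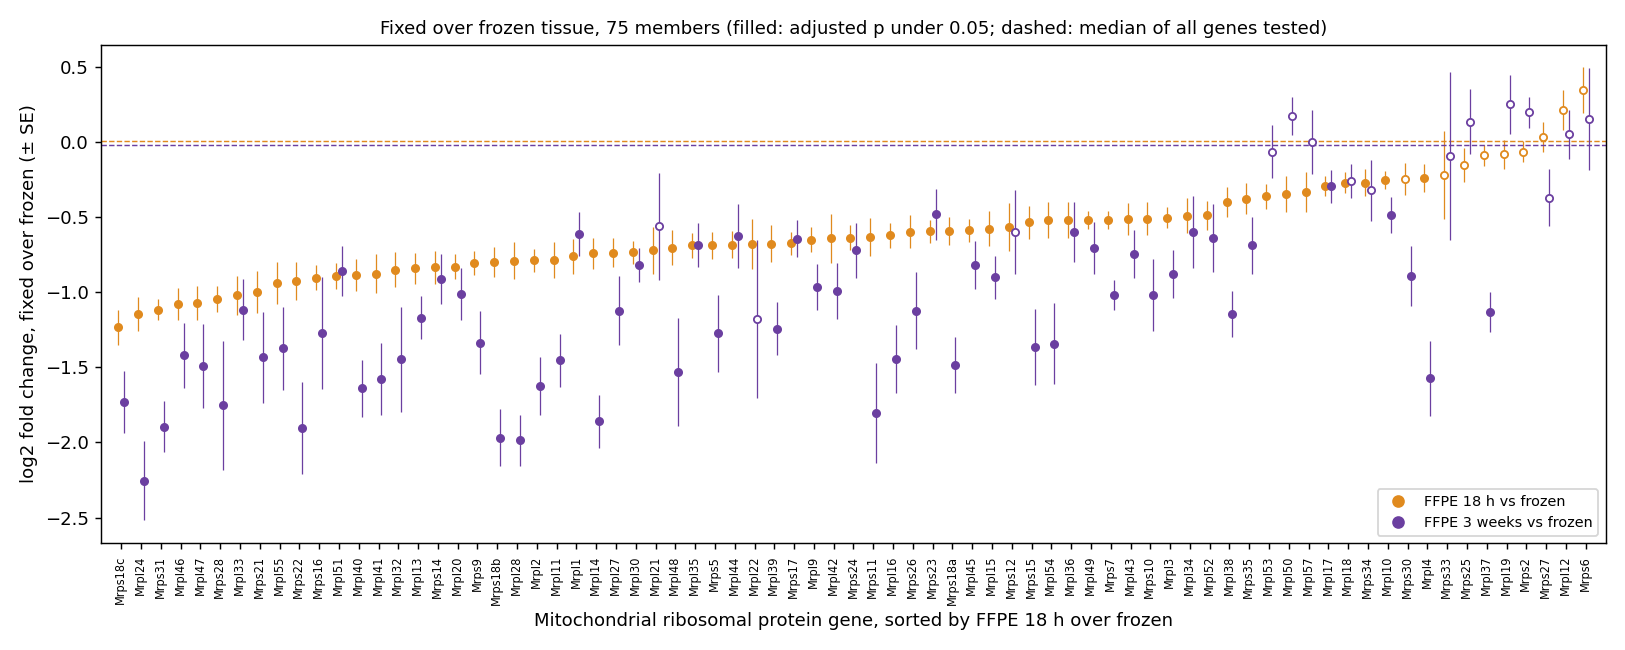
Log2 fold change ± SE of each of the 75 tested members in FFPE 18 h (orange) and FFPE 3 weeks (purple) over frozen tissue, 8 libraries each, filled where the adjusted p was under 0.05, with the median of all genes tested as dashed lines. Nearly all members lie below the dashed lines, from -1.23 to 0.35 in FFPE 18 h and from -2.25 to 0.25 in FFPE 3 weeks tissue, and both sets of fold changes use the same frozen libraries.

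The 2 fixed tissues also differed from each other. Between FFPE 3 weeks and FFPE 18 h tissue 23 members fell, 2 rose and 50 did not pass, with a median of -0.36 against -0.05 over all genes, of which 17.5% fell and 32.4% were called (14414 tested). Libraries were apart for 6 members downward and for none upward, against 5.42% and 3.86% of all genes. Mrpl4, which lines the peptide tunnel, was at 2.42, 3.00 and 8.03 CPM in FFPE 3 weeks and 8.47, 9.63 and 11.4 CPM in FFPE 18 h tissue (-1.35 ± 0.25, edgeR adjusted p = 0.000165). Mrpl28 (-1.21 ± 0.15), Mrps18b (-1.18 ± 0.21), Mrpl37 (-1.06 ± 0.13) and Mrps18a (-0.90 ± 0.19) fell with it and had no overlap between the groups. Mrpl37 was at 10.8, 14.1 and 17.3 CPM in FFPE 3 weeks and 24.9, 31.3 and 34.3 CPM in FFPE 18 h tissue, although its log2 fold change between FFPE 18 h and frozen tissue was -0.09 ± 0.07 (edgeR adjusted p = 0.319).

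The 2 that rose were Mrpl50, at 63.5, 77.9 and 87.8 CPM in FFPE 3 weeks and 42.2, 55.9 and 66.6 CPM in FFPE 18 h tissue (0.50 ± 0.08, edgeR adjusted p = 1.08e-05), and Mrps2, the homologue of bacterial S2, at 36.9, 46.1 and 60.2 CPM in FFPE 3 weeks and 35.9, 38.5 and 46.3 CPM in FFPE 18 h tissue (0.25 ± 0.09, edgeR adjusted p = 0.0408). The call of Mrps2 was lost without control animal 3, 4 or 6 or furan animal 42, 43 or 44, after thinning, without the filter on low counts and with the replicate block. In both the groups overlapped, and these members are named because no others rose, a choice made after their values were seen. Mrpl50 thus became the highest member per kb after 3 weeks in formalin. With the replicate block the median of all genes was -0.18, Mrpl50 was the member that rose, and 25 fell.

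The 3 homologues of S18 show how far members of 1 family can differ. Per kb in frozen tissue Mrps18c stood at 30.4 ± 5.70 CPM, Mrps18a at 28.2 ± 3.59 and Mrps18b at 15.1 ± 3.41 (SD, n = 8), so that the first pair did not differ beyond their spread and Mrps18b was lower. In FFPE 18 h over frozen tissue their log2 fold changes were -1.23, -0.59 and -0.80 for Mrps18c, Mrps18a and Mrps18b, and all passed. With furan in FFPE 18 h tissue only Mrps18b passed (0.61), while Mrps18c and Mrps18a were at 0.12 ± 0.15 and -0.05 ± 0.12, and the difference between the homologues was not tested.

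The falls were spread over both subunits and both origins. Between FFPE 18 h and frozen tissue 45 of 49 large-subunit members fell (median -0.65) and 21 of 26 small-subunit members did (median -0.61). Of members with a bacterial homologue 43 of 47 fell (median -0.69), and of the others 23 of 28 (median -0.52). Between FFPE 3 weeks and frozen tissue the medians were -0.99 for the large and -1.02 for the small subunit, with 41 of 49 and 19 of 26 members falling. No test compared the classes.

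Members are short, and genes with short transcripts were called lower in fixed tissue more often than genes with long ones. The tested members had a median transcript length of 1280 nucleotides (nt), against 2950 nt over all genes with a length (lengths from GENCODE M21). Genes were split by length into 5 bins of about equal size. Of all genes in the shortest bin, up to 1631 nt, 44.8% fell in FFPE 18 h against frozen tissue, with a median of -0.34, and in the longest bin 8.74% fell, with a median of 0.27. In that shortest bin 44 of 48 members fell, with a median of -0.66. The other bins held 3 to 9 members each, and in the middle bin, from 2500 to 3464 nt, the 9 members had a median of -0.83 beside -0.02 over all genes of that length. Across the 75 members the Pearson correlation between length and log2 fold change was 0.19, and across all genes 0.21 (Spearman 0.18 and 0.33), values that describe genes measured in the same libraries.

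**Figure D5:**
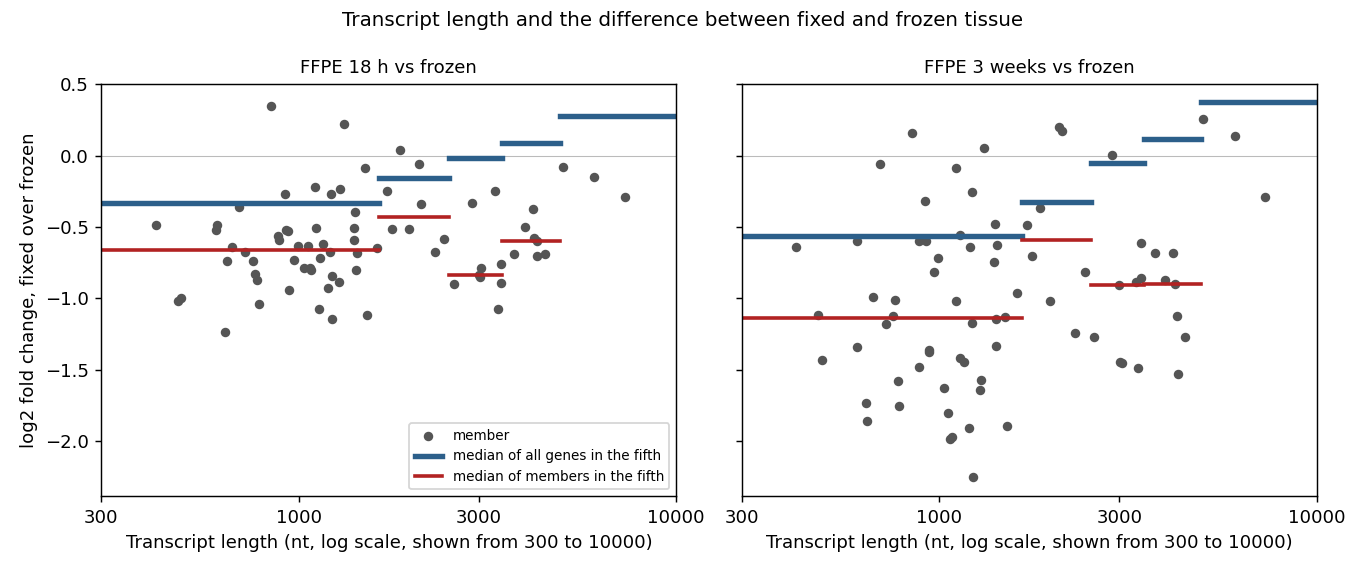
Transcript length (x, nt, log scale) and log2 fold change over frozen tissue (y) of each member (points) in FFPE 18 h (left) and FFPE 3 weeks tissue (right), with the median of all genes (blue) and of members (red) within 5 bins of all genes by length. In the shortest bin the medians were -0.66 for members and -0.34 for all genes in FFPE 18 h, and -1.14 and -0.56 in FFPE 3 weeks tissue. The longest bin holds 3 members and has no red line.

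In FFPE 3 weeks over frozen tissue 39 of 48 members of the shortest bin fell, with a median of -1.14 beside -0.56 over all genes of that bin. GC content showed no such offset between members and all genes, with medians of 50.9% and 50.1%. Between FFPE 3 weeks and FFPE 18 h tissue, the bin of genes richest in GC, of 5, had a median of -0.31 and the 12 members in it a median of -0.79, while in the bin poorest in GC the medians were 0.25 and, for 10 members, -0.01.

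Hepatocyte markers moved the same way as the members. Of the 8, 7 fell in FFPE 18 h against frozen tissue (median -0.77) and 8 in FFPE 3 weeks (median -1.33), with summed levels of 53880 to 67784 CPM in furan and 63271 to 69655 CPM in control FFPE 3 weeks libraries. Of 8 Kupffer cell and macrophage markers 7 fell in FFPE 18 h (median -0.69) and 6 in FFPE 3 weeks. Of 6 stellate cell markers 2 fell in FFPE 18 h, with a median of 0.02. The part of these shifts in the values of the members was not tested.

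Gene groups of like function were set beside the members. Nuclear subunits of the respiratory chain, which pair with the products of the mitochondrial ribosome, fell in 70 of 77 genes in FFPE 18 h against frozen tissue (1 rose) with a median of -0.82, and in 70 of 77 in FFPE 3 weeks with a median of -1.19. Cytosolic ribosomal proteins fell in 38 of 71 genes (1 rose) with a median of -0.46 in FFPE 18 h, and in 25 of 65 (3 rose) with a median of -0.48 in FFPE 3 weeks. In FFPE 18 h tissue furan called 6 of 77 respiratory chain genes lower and none higher (7.79% called). Of 64 cytosolic ribosomal proteins 5 were higher and 1 lower (9.38%), and of 75 mitochondrial ribosomal proteins 6 were higher and 2 lower (10.7%). Of all genes tested 15.5% were called, 7.82% higher and 7.72% lower. With both directions counted together, no group exceeded the 15.5% of all genes. Median log2 fold changes with furan in FFPE 18 h tissue were -0.03 for respiratory chain genes, 0.08 for cytosolic and 0.07 for mitochondrial ribosomal proteins. In FFPE 3 weeks tissue they were -0.01, 0.22 and 0.13. Differences between these groups were not tested.

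Lists of other genes for mitochondrial translation fell as well. Of all genes tested against frozen tissue 27.3% fell in FFPE 18 h and 25.8% in FFPE 3 weeks. All 6 ribosomal proteins with other symbols fell in FFPE 18 h against frozen tissue (median -0.74), among them Chchd1 (-0.91 ± 0.08, edgeR adjusted p = 2.48e-08) and Aurkaip1 (-0.85 ± 0.11, edgeR adjusted p = 1.61e-06) of the small subunit and Ict1 (-0.73 ± 0.08, edgeR adjusted p = 1.43e-07), a peptide release factor built into the large subunit. Of 13 translation factors 10 fell (median -0.28), with elongation factor Gfm1 at -0.58 ± 0.09, initiation factor Mtif3 at -0.49 ± 0.08 and recycling factor Mrrf at -0.55 ± 0.10. Of 26 assembly factors 21 fell and 1 rose (median -0.38). The RNA-binding protein Lrpprc, which stabilizes mitochondrial messengers, was at -0.60 ± 0.06 (edgeR adjusted p = 3.17e-08), and C1qbp, a matrix protein needed for mitochondrial translation, was the one that rose, at 0.89 ± 0.08 (edgeR adjusted p = 1.25e-08). In FFPE 3 weeks over frozen tissue the 6 ribosomal proteins with other symbols all fell (median -1.05). So did 8 of 13 translation factors (median -0.73) and 18 of 26 assembly factors (median -0.73), while 2 assembly factors rose.

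Of 10 regulators of mitochondrial biogenesis, 5 rose, none fell and 5 did not pass in FFPE 18 h against frozen tissue (median 0.28), where 26.6% of all genes rose. Among those that rose were the coactivators Pprc1 (1.39 ± 0.14, edgeR adjusted p = 8.52e-08) and Ppargc1b (1.07 ± 0.18, edgeR adjusted p = 4.60e-05) and Gabpb1, the partner of the ETS factor Gabpa (0.42 ± 0.09, edgeR adjusted p = 0.000701). In FFPE 3 weeks 4 rose, none fell and 6 did not pass, where 23% of all genes rose, with Gabpb1 at 1.02 ± 0.16, Ppargc1a at 0.95 ± 0.15 and Pprc1 at 1.16 ± 0.19. Of 12 genes of mitochondrial DNA maintenance and transcription 4 (33.3%) fell in FFPE 18 h, near the 27.3% of all genes that fell. Among the 4 was Tfam, which packages mitochondrial DNA (-0.46 ± 0.08, edgeR adjusted p = 5.64e-05). In FFPE 3 weeks over frozen tissue 7 of the 11 tested genes of that list (63.6%) fell, with a median of -0.65, where 25.8% of all genes fell.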

How the data were processed

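Total RNA of each liver piece was sequenced on an Illumina instrument after bead depletion of ribosomal RNA (TruSeq Total RNA), per the labels' protocols. The authors deposited whole-number read counts per gene, and the submitters' processing notes name CASAVA 1.8.2, STAR 2.3.0, featureCounts 1.4.4 and build mm9. Gene models, strand and the handling of reads with several matches are not given in the sources used here. The 77 members and all gene lists were chosen with earlier results of these data known.

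Counts were tested with edgeR 4.0.16 (R 4.3.3, limma 3.58.1): filterByExpr, TMM and the robust quasi-likelihood test, with Benjamini-Hochberg adjustment over all genes tested and a threshold of 0.05. The furan comparisons each used the libraries of 1 preservation (4 against 4). Preservations were compared over both treatments (8 libraries each), and differences in furan effect were tested in the same fits. CPM were TMM-normalized over 24 libraries. The members named were those called or of smallest p in each comparison, and the largest changes with fixation, by a rule set with the design. The pieces of an animal pair by design: same-numbered libraries correlated at -0.0153 to 0.526 over 10196 genes in 24 pairs, and 22 matched their own number best. The exceptions both involved the frozen library of control animal 3 (0.0484 with its FFPE 18 h and -0.0153 with its FFPE 3 weeks library). Both fixed libraries were closest to the frozen library of control animal 2, and they matched each other best. Whether that frozen library carries the right animal number was not tested. The tests were also run on simulated counts of independent libraries, with few genes changed, in either direction. Fixed and frozen tissue differed in many genes and shared animals, so that run is no check of those comparisons. Alternatives were other scalings, no filter, DESeq2 1.42.0, thinning to 5560002 counts, the replicate block, a fit over all libraries and leaving out each animal. Lengths came from GENCODE M21 and promoters from RefSeq GRCm38.p6. Each gene had the length of 1 transcript: those linked to RefSeq were preferred, then coding ones, then the longest.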

Additional observations from a re-analysis of the deposited data

Results flagged for a closer look

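In 210 groups of 4 libraries (34 named members and their summed level), 17 had a library whose gap to the others exceeded Dixon's critical share of the group's range. Chance gives about 1 in 20.

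The frozen library of control animal 3 gave 4 of them. Mrpl12 was at 51.9 CPM there (26.9 to 30.9 in the other 3 controls), Mrpl28 at 65.4 (32.4 to 34.2), Mrps18a at 31.5 (22.4 to 23.7) and Mrps22 at 13 (26.6 to 28.9).

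Other high values were Mrps18c at 24.0 CPM in control animal 2, frozen (others 15.9 to 16.6), and Mrpl47 at 12.7 in furan animal 44, frozen (10.1 to 10.4). In FFPE 18 h tissue they were Mrps30 at 19.4 in control animal 3 (17.3 in the others) and Mrps31 at 22.9 in control animal 6 (18.6 to 19.2). In FFPE 3 weeks tissue they were Mrps30 at 28.8 in furan animal 43 (11 to 12.7), Mrps31 at 19.4 in control animal 4 (7.52 to 9.42) and Mrps10 at 8.74 in control animal 2 (2.95 to 3.92).

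Low values were Mrps6 at 4.80 CPM in furan animal 42, FFPE 18 h (6.97 to 7.42), and, in FFPE 3 weeks tissue, Mrpl13 at 15.7 in furan animal 44 (26.5 to 27.2) and Mrps18b at 4.12 in furan animal 43 (4.94 to 5.09). The barely detected members gave 3 more: Mrps36 at 0.278 CPM in furan animal 42, FFPE 18 h (0 to 0.0385), Mrps36 at 1.5 in furan animal 41, FFPE 3 weeks (0 in the others), and Mrpl23 at 1.22 in furan animal 43, FFPE 3 weeks (0 in the others).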

How the results depend on the processing

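No named member past the threshold changed sign under the alternatives run. With total-count scaling Mrpl37 (0.24), Mrps2 (0.27) and Mrpl19 (0.25), just below 0 and not called with TMM in FFPE 18 h over frozen tissue, were called higher. In frozen tissue furan called 1 member with total-count scaling and 3 with DESeq2, and leaving out an animal gave 0 to 3, with 3 without control animal 3; the member median was 0.16 after thinning. In FFPE 18 h tissue furan called 4 members after thinning, 0 in the fit over all libraries, and 5 to 9 with an animal left out (5 without control animal 4). In FFPE 3 weeks tissue the fit over all libraries called 6. Member medians with total-count scaling were -0.30 for FFPE 18 h over frozen, -0.58 for FFPE 3 weeks over frozen and -0.26 for FFPE 3 weeks over FFPE 18 h tissue, and thinning gave -0.91 for FFPE 3 weeks over frozen. With an animal left out, the median difference in furan effect changed sign, and ranged from -0.075 to 0.065 for FFPE 3 weeks minus frozen (lowest without control animal 3) and from -0.11 to 0.063 for FFPE 3 weeks minus FFPE 18 h (lowest without furan animal 42). Members called over frozen tissue numbered 62 to 68 in FFPE 18 h and 56 to 62 in FFPE 3 weeks tissue with an animal left out. The cause of these shifts was not tested beyond the fewer counts or libraries that thinning and leaving out an animal leave.

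The replicate block called 67, 62 and 26 members in FFPE 18 h over frozen, FFPE 3 weeks over frozen and FFPE 3 weeks over FFPE 18 h tissue. Among members called higher, it added Mrps6 in FFPE 18 h over frozen tissue and lost Mrps2 in FFPE 3 weeks over FFPE 18 h tissue, and the members called lower numbered 66, 62 and 25. After thinning to 5560002 counts, furan called 1582 genes in FFPE 18 h and 325 in FFPE 3 weeks tissue.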
